A study of Mus musculus with 8 samples.

Results

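The 6 genes described here, Rgs5, Cspg4, Abcc9, Mcam, Ndufa4l2 and Higd1b, are markers of pericytes, and were taken by gene name from a table of 46635 loci, where each of the 6 had 1 row. RNA was sequenced from the wall of the small intestine of wild-type mice after the epithelium had been stripped with EDTA, a preparation the labels call mesenchyme. Fetuses at stage E17.5 (E17 in the age tag) gave 4 libraries and pups at postnatal day 14 (P14) gave the other 4. Both ages carried no mutation and no treatment. Whether a library holds 1 animal or several is not in the labels. The p-values thus measure how far these libraries spread, which may be a technical spread. In bulk tissue, fewer cells of a type and less RNA per cell cannot be told apart.

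Pericytes are mural cells that sit in the basement membrane of capillaries and contact the endothelium, which attracts them with PDGF-B acting on the receptor PDGFRB and is steadied by angiopoietin 1 acting on the receptor TIE2. They help set capillary tone and barrier function, and in the gut they line the capillaries of the villi and of the muscle layers. None of the 6 genes is private to them. Rgs5 encodes a brake on G-protein signalling that vascular smooth muscle also makes. Cspg4 encodes the surface proteoglycan NG2, Mcam the adhesion molecule CD146, which endothelium and smooth muscle also carry, and Abcc9 the SUR2 subunit of the ATP-sensitive potassium channel. Ndufa4l2 and Higd1b encode small mitochondrial proteins.

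The files hold FPKM, the reads of a gene scaled to its length and to the size of the library, so levels can be compared per length between genes of a library. The scale is not identical between libraries: the values summed to 504693 FPKM in P14 replicate 1 and to between 333278 and 366312 FPKM in the other 7. The reads behind the values could be recovered as whole numbers and summed to between 16.7e+06 and 19.5e+06 per library. Of the pericyte genes, 5 passed the filter for testing (1 FPKM or above in no fewer than 4 libraries) and rested on 90 to 21927 reads per library. Higd1b did not pass. P14 replicate 1 stood apart from the other P14 libraries: a list of 14 epithelial genes, which EDTA was meant to remove, summed to 4407 FPKM there, against 128 to 665 FPKM in P14 replicates 2 to 4 and 41.2 to 62.9 FPKM at E17.5. Each of the 6 pericyte genes was at 0.33 to 0.42 times the mean of the other P14 libraries in it, where the median over all 14044 tested genes was 1.02 and the median of a list of visceral smooth muscle genes was 0.32. Results are therefore given with and without that library.

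Between E17.5 and P14 the pericyte genes went different ways. Rgs5 was 2.52-fold higher at P14 and Ndufa4l2 was 2.94-fold lower, and both passed the test. Cspg4, Abcc9 and Mcam did not pass with all libraries, and Higd1b was too low to test. That is 1 of 5 tested members higher, where 9.72% of all tested genes were called higher, and 1 of 5 lower, where 15% were called lower (24.7% in either direction). Without P14 replicate 1, 2 members were higher (Rgs5 and Abcc9) and 2 lower (Ndufa4l2 and Cspg4), where 22.6% of tested genes were called higher and 26.9% lower (49.5% in either direction). The median log2 fold change of the 5 was -0.38, and -0.06 without that library, beside 0.00219 and -0.03 over all tested genes. Counts over 5 genes are too coarse to stand apart from those shares.

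**Figure D1:**
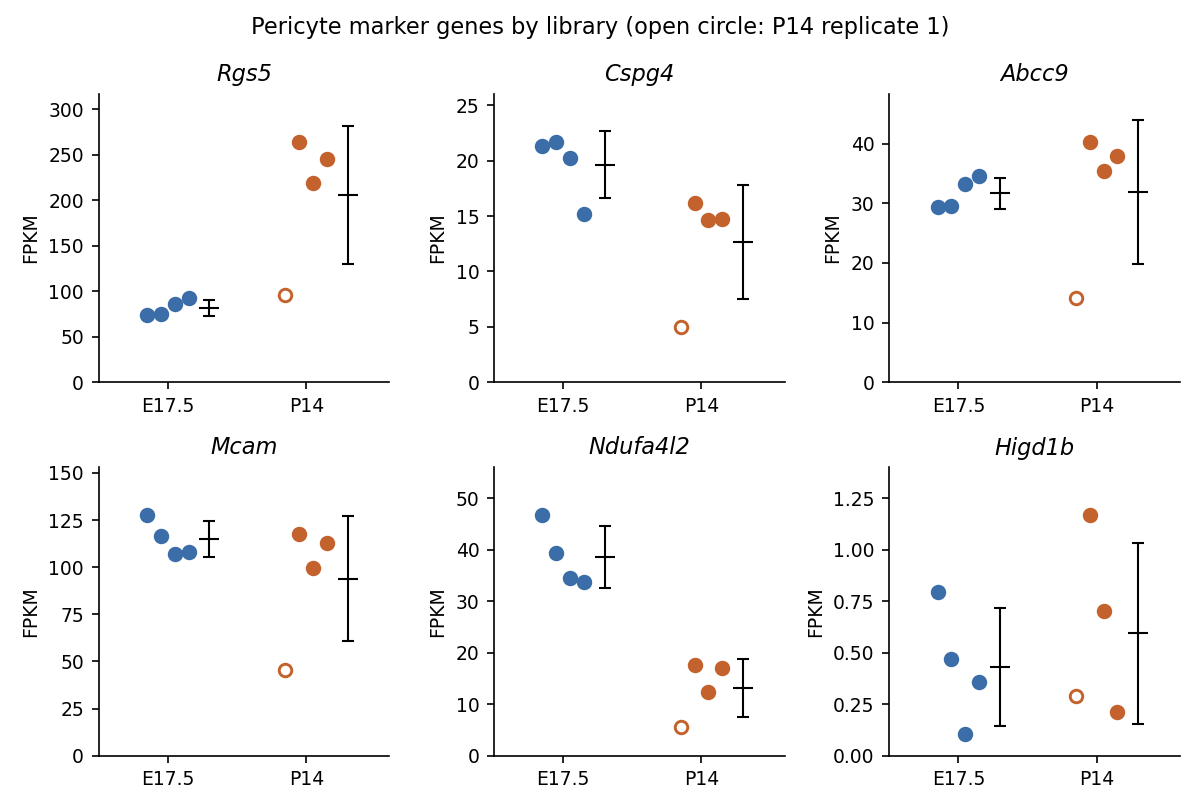
FPKM of the 6 pericyte marker genes in each library, by age; points are libraries, the open circle is P14 replicate 1, and the bar beside them is the mean with its SD (n = 4). Rgs5 lies higher and Ndufa4l2 lower at P14 in every library, and P14 replicate 1 is the lowest P14 library for every gene but Higd1b.

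Rgs5 (gene 19737, chromosome 1, 169483070 to 169523382, plus strand, GRCm39) ends the signal of Gq- and Gi-coupled receptors such as those for vasoconstrictors. The fetal libraries, in the order of their replicate numbers, held 73.5, 74.5, 85.8 and 92.7 FPKM. At P14 it was 95.7 FPKM in replicate 1 and 265, 219 and 245 FPKM in replicates 2 to 4. The ages did not overlap, though P14 replicate 1 lay just above the highest fetal library. The means were 81.6 ± 9.21 and 206 ± 76.0 FPKM (SD, n = 4), and the log2 fold change was 1.23 (SE 0.309, limma adjusted p = 0.0242). Without P14 replicate 1 the P14 mean was 243 ± 23.1 FPKM, 2.98-fold above E17.5 (log2 fold change 1.56, SE 0.108, limma adjusted p = 2.6e-05). The call with all libraries was narrow: it was lost without any one of the other 7 libraries (adjusted p 0.0531 to 0.0666), and after rescaling to a fixed sum per library (TPM) the log2 fold change was 1.04 with an adjusted p of 0.0945.

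Ndufa4l2 (gene 407790, chromosome 10, 127345143 to 127353023, plus strand) encodes a paralog of the respiratory-chain subunit NDUFA4 and is a known target of the hypoxia-inducible factor HIF-1. The fetal libraries held 46.7, 39.3, 34.5 and 33.7 FPKM, and P14 replicates 1 to 4 held 5.57, 17.6, 12.3 and 17.1 FPKM. Every P14 value was below every fetal value. The means were 38.6 ± 5.95 and 13.1 ± 5.57 FPKM (log2 fold change -1.59, SE 0.323, limma adjusted p = 0.0115). Leaving out P14 replicate 1, the fall was 2.47-fold, to 15.6 ± 2.92 FPKM (log2 fold change -1.25, SE 0.15, limma adjusted p = 0.000326). This call held in all 8 fits that left out a library. The gene overlaps Shmt2, on the opposite strand and at up to 32.0 FPKM, by 32 bases. The sources used here do not say if reads were counted by strand.

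Cspg4 (gene 121021, chromosome 9, 56772388 to 56807154, plus strand) encodes NG2, a transmembrane proteoglycan of mural cells that glial precursors and smooth muscle can also make. In the order of the replicates, the fetal libraries held 21.3, 21.7, 20.3 and 15.2 FPKM and the P14 libraries 5.02, 16.2, 14.6 and 14.7 FPKM. E17.5 replicate 4 lay among the P14 libraries, so the ages overlapped. The log2 fold change was -0.69 (95% confidence interval -1.46 to 0.07, limma adjusted p = 0.161). When P14 replicate 1 was left out it was -0.34 (SE 0.123), and the adjusted p of 0.0488 just passed. Odf3l1, on the other strand, overlaps the gene by 6812 bases but held at most 54 reads in a library.

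Abcc9 (gene 20928, chromosome 6, 142533588 to 142648472, minus strand) encodes SUR2, which makes the channel sensitive to ATP and to vasodilator drugs. Its level was 29.3, 29.5, 33.3 and 34.6 FPKM at E17.5, and 14.1, 40.3, 35.4 and 37.9 FPKM at P14. P14 replicate 1 was the lowest of all 8 libraries and the other P14 libraries were the highest 3. The long noncoding RNA 5330439B14Rik overlaps the gene on the other strand by 11868 bases and held at most 8 reads in a library. The means of the ages, 31.7 ± 2.64 and 31.9 ± 12.1 FPKM, were nearly equal (log2 fold change -0.09, 95% confidence interval -0.8 to 0.63, limma adjusted p = 0.854). In the fit that left out P14 replicate 1 the direction turned and the gene rose by 0.25 on the log2 scale (SE 0.0861, limma adjusted p = 0.0383), to 37.9 ± 2.45 FPKM.

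Mcam (gene 84004, chromosome 9, 44045946 to 44054024, plus strand) was the most abundant of the 6 genes per length at E17.5. It was at 128, 117, 107 and 108 FPKM in the fetal libraries and at 45.4, 117, 99.8 and 113 FPKM in the P14 libraries. P14 replicates 2 to 4 covered much the same range as the fetal libraries. The log2 fold change was -0.38 (95% confidence interval -1.04 to 0.29, limma adjusted p = 0.37), and -0.06 without P14 replicate 1 (95% confidence interval -0.27 to 0.15, adjusted p = 0.608). Without that library a change of more than 0.27 on the log2 scale in either direction lay outside the interval. Lama4, the gene of the laminin chain in the vascular basement membrane that CD146 can bind, fell from 73.7 ± 2.5 to 37.5 ± 11.7 FPKM (log2 fold change -1.02, SE 0.243, limma adjusted p = 0.0206). That call was lost without any one fetal library (adjusted p 0.052 to 0.0631) and in limma-voom on recovered reads (adjusted p = 0.0502).

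Higd1b (gene 75689, chromosome 11, 102726597 to 102728866, plus strand), a gene much used to mark pericytes in lung and heart, was close to the limit of detection. It had 15, 8, 2 and 7 reads in E17.5 replicates 1 to 4, and 4, 21, 13 and 4 reads in P14 replicates 1 to 4. These are 0.107 to 0.794 FPKM at E17.5 and 0.212 to 1.17 FPKM at P14. The ages overlapped, with sums of 32 reads (95% exact Poisson interval 21.9 to 45.2) and 42 reads (30.3 to 56.8), intervals that cover counting error only. The difference on the log2(FPKM + 1) scale was 0.14 (exact two-sided permutation p = 0.629). No difference was detectable at this depth.

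**Figure D2:**
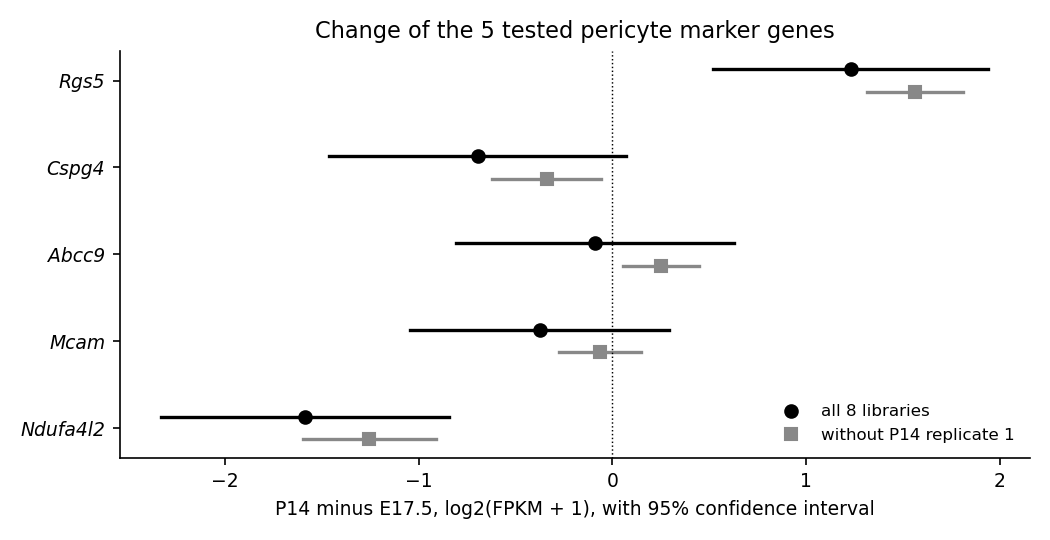
Log2 fold change of the 5 tested pericyte genes, P14 minus E17.5, with its 95% confidence interval from limma; black circles use all 8 libraries and grey squares leave out P14 replicate 1. Intervals of Rgs5 and Ndufa4l2 lie on opposite sides of 0 in both fits, and leaving out P14 replicate 1 moves all 5 values to the right.

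The order of the genes by level also changed. At E17.5 it was Mcam, Rgs5, Ndufa4l2, Abcc9, Cspg4 and Higd1b, from 115 down to 0.431 FPKM on average, and only Ndufa4l2 and Abcc9 overlapped as neighbours. At P14 Rgs5 stood first in each of the 4 libraries and Mcam second, although their ranges overlapped through P14 replicate 1. Ndufa4l2 had moved below Abcc9 in each of the 4, and its level no longer differed from that of Cspg4 beyond their spread (13.1 ± 5.57 and 12.6 ± 5.13 FPKM). Rgs5 made up 24.6% to 32.6% of the summed FPKM of the 6 genes at E17.5, and 57.6%, 57.9%, 57.3% and 57.3% in P14 replicates 1 to 4. The share of Ndufa4l2 went from between 11.9% and 15.6% to between 3.22% and 3.98%. P14 replicate 1, whose summed level of 166 FPKM was the lowest of all libraries (281 to 299 at E17.5 and 381 to 457 in the other P14 libraries), had almost the same makeup as its group.

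**Figure D3:**
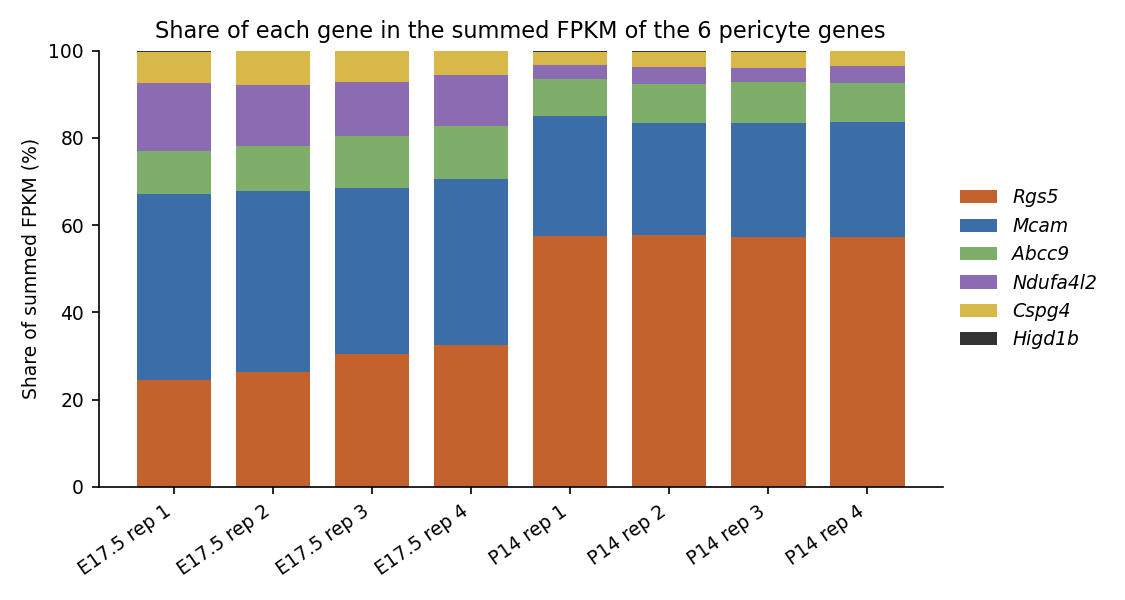
Share of each pericyte gene in the summed FPKM of the 6, in percent, for each library; bars stack to 100 and Higd1b is too thin to see in most of them. The bars of all 4 P14 libraries are nearly alike, with Rgs5 at 57.3% to 57.9%.

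Ratios of 2 genes within a library do not depend on how libraries are scaled, and were examined after the values had been seen. Of the 10 ratios among the 5 tested members, which share genes and so are not independent, 8 did not overlap between the ages and passed an exact two-sided permutation test (adjusted p = 0.0333 each over 14 ratios, n = 4 against 4, where the smallest possible raw p is 0.0286). How many pairs among all tested genes part in this way was not computed, so the 8 cannot be read as particular to the members. Rgs5 against Ndufa4l2 moved the most. It was 1.58, 1.9, 2.48 and 2.75 in the fetal libraries and 17.2, 15.1, 17.8 and 14.4 in P14 replicates 1 to 4, a 7.55-fold rise. Rgs5 against Cspg4 rose 3.99-fold, against Mcam 3.08-fold and against Abcc9 2.53-fold. The last of these had the narrowest range of the 4 in the fetal libraries, at 2.51 to 2.68, and was 6.17 to 6.8 in the P14 libraries. P14 replicate 1 lay outside the range of the other 3 P14 libraries in 3 of these 4 ratios, at 19.0 against 14.9 to 16.7 for Rgs5 to Cspg4, at 6.8 against 6.17 to 6.56 for Rgs5 to Abcc9 and at 2.11 against 2.18 to 2.25 for Rgs5 to Mcam. The calls of the 4 ratios held in all 8 fits that left out a library.

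Ratios among Cspg4, Mcam and Abcc9 moved less than the others. Cspg4 against Mcam was 0.141 to 0.189 at E17.5 and 0.111 to 0.147 at P14 (exact adjusted p = 0.0615), and Abcc9 against Mcam was 0.23 to 0.32 and 0.31 to 0.355 (exact adjusted p = 0.0857). Both overlapped between the ages. Cspg4 against Abcc9 went from between 0.439 and 0.735 to between 0.357 and 0.413, a call lost without any one P14 library (exact adjusted p 0.0615 to 0.0667). Ndufa4l2 lost ground to each of the others: Mcam, Abcc9 and Cspg4 against it rose 2.45-fold, 2.99-fold and 1.89-fold.

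**Figure D4:**
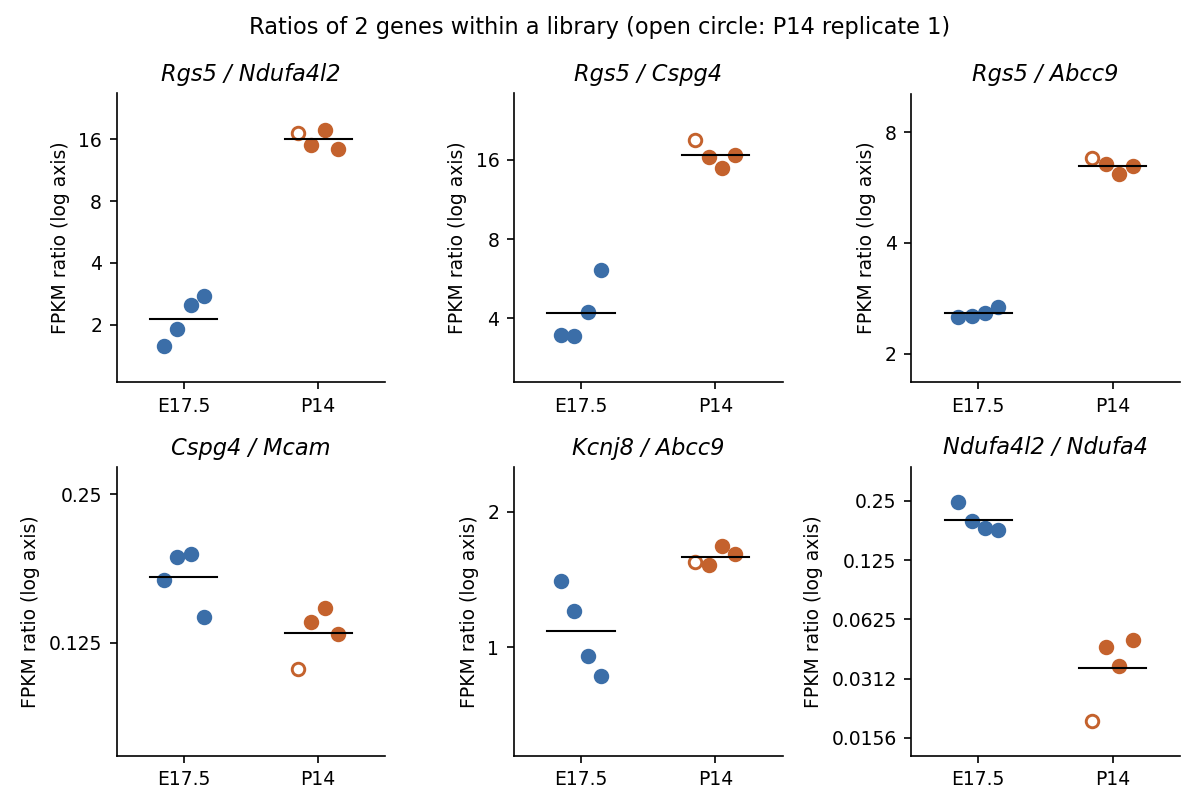
Ratio of the FPKM of 2 genes within each library on a log axis, for 4 pairs of pericyte genes and for 2 of them against a channel partner or paralog; points are libraries, the open circle is P14 replicate 1 and lines are geometric means (n = 4). Ratios of Rgs5 to the other members separate the ages, with P14 replicate 1 on the P14 side.

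The promoters of Rgs5 and Abcc9 are shown because these genes held a narrow ratio among the fetal libraries and parted between the ages. Each run is the 250 bases before the annotated start, 5′ to 3′ on the gene's own strand, from RefSeq on GRCm38.p6 (chr1:169655251-169655500, plus strand, and chr6:142702275-142702524, minus strand), a build other than that of the expression table. Of the 6 genes, 4 matched the promoter table, Mcam and Cspg4 being the others. Capitals mark a match to TGGGAA, the core bound by RBPJ, the DNA-binding partner of Notch receptors.
Rgs5: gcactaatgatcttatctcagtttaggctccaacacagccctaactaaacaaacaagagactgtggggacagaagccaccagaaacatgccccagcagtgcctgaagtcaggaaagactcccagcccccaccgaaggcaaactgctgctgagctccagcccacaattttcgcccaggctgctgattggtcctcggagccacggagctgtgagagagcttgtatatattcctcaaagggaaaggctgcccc
Abcc9: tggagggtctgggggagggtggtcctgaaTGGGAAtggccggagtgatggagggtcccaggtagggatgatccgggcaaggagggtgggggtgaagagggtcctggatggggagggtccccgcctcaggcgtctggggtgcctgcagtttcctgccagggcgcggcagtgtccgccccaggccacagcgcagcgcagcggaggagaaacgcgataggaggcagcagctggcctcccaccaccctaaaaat
The 4 windows were searched on both strands for TGGGAA, for ACGTG and GCGTG (cores of the hypoxia response element), for TATAAA and for the CArG box bound by serum response factor. The only match was TGGGAA in Abcc9, 221 to 216 bases before the start. Over 32851 promoter windows of the same length, 21.6% held TGGGAA, 16.6% ACGTG, 28.2% GCGTG, 12.4% TATAAA and 1.47% a CArG box. A match is a description of these letters and not a binding site.

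The pericyte genes were next set against the vessel lining. Of 20 endothelial genes 0 were called higher and 11 lower at P14, where 9.72% and 15% of all tested genes were called so (median log2 fold change -0.85). Without P14 replicate 1, 2 were called higher and 12 lower, where 22.6% and 26.9% of all tested genes were called so. Kdr, a VEGF receptor, went from 60.2 ± 7.2 to 24.3 ± 6.75 FPKM, Eng, a TGF-beta co-receptor, from 141 ± 7.87 to 62.6 ± 19.9 FPKM, and Clec14a, an endothelial lectin, fell by 1.23 on the log2 scale. Pecam1, the most abundant of the list after both ages were averaged, went from 147 ± 7.85 to 71.9 ± 18.8 FPKM. The list summed to 1067 to 1149 FPKM at E17.5 and to 382 to 855 FPKM at P14, with P14 replicate 1 the lowest.

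Relative to the mean log2 level of those 20 endothelial genes, Rgs5 rose by 1.98, Abcc9 by 0.66 and Mcam by 0.38 between the ages, and Ndufa4l2 fell by 0.83. In each of the 4 the ages did not overlap (exact two-sided permutation adjusted p = 0.0429 over the 6 members, n = 4 against 4). The endothelial mean itself went from 5.46 to 4.71 on the log2(FPKM + 1) scale, so a gene of equal level at both ages rises against it. How many of all tested genes part from it in this way was not computed. Rgs5 stood 0.7, 0.82, 1.01 and 1.08 above the endothelial level in the fetal libraries and 2.6, 3.06, 2.97 and 2.91 above it at P14. Cspg4 overlapped between the ages, at -1.11 ± 0.238 and -1.05 ± 0.255 on the log2 scale (difference 0.06, exact adjusted p = 0.6). Higd1b was at the floor, so its difference of 0.89 (exact adjusted p = 0.0686) follows the reference. Leaving out any one fetal library took the 4 calls past the threshold, to exact adjusted p of 0.0686 to 0.0857, with differences of 1.92 to 2.04 for Rgs5. With 3 against 4 libraries the smallest possible raw p of that permutation test is 0.0286, and the adjustment runs over all 6 members. The adjusted p of a member thus also depends on the others. Leaving out a P14 library has the same smallest raw p, and there the 4 calls held (exact permutation adjusted p 0.0343 to 0.0429). Without a fetal library the raw p of some of the 4 was thus above that smallest value.

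**Figure D5:**
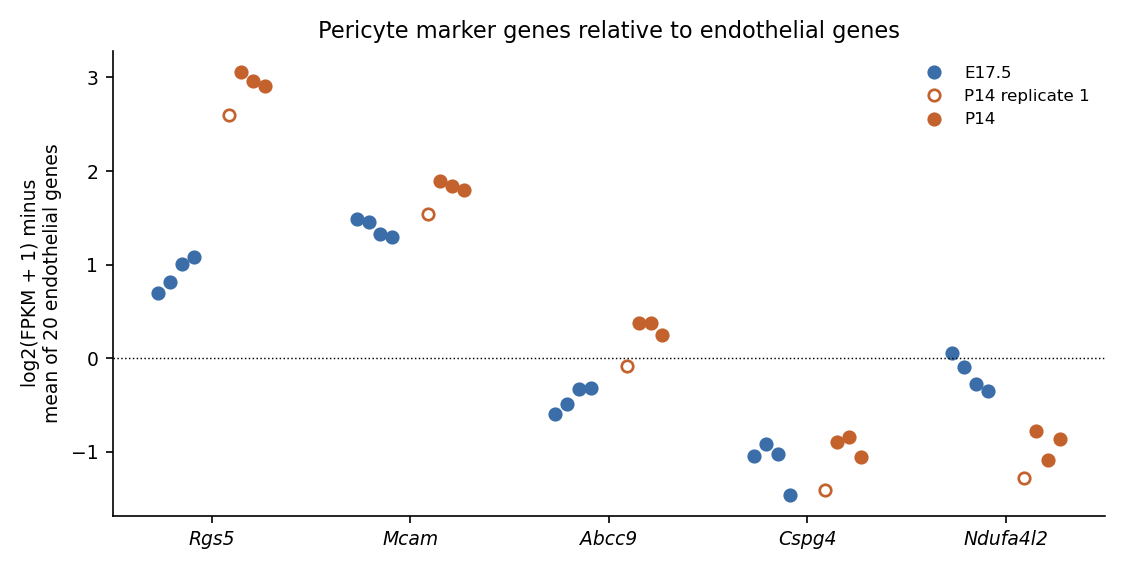
Level of 5 pericyte genes on the log2(FPKM + 1) scale minus the mean of 20 endothelial genes in the same library; each point is a library and the open circle is P14 replicate 1. Rgs5, Mcam and Abcc9 lie higher at P14, Ndufa4l2 lies lower, and Cspg4 overlaps.

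Against the visceral smooth muscle list, which takes in the thick muscle coat, the picture differed: Rgs5 was 0.54 higher at P14, and Mcam, Abcc9, Cspg4 and Ndufa4l2 were lower by 1.06, 0.78, 1.38 and 2.27 on the log2 scale (exact two-sided permutation adjusted p = 0.0343 for each, n = 4 against 4). Rgs5 rose against both references, and the direction of Mcam, Abcc9 and Cspg4 turned with the reference (for Cspg4 the first difference did not pass). Of the 12 genes on that list 11 were tested. Synm, an intermediate filament gene, rose (22.4 ± 0.38 to 78.7 ± 34.1 FPKM), and the other 10 did not pass. The fit that left out P14 replicate 1 called 10 of the 11 higher. In that fit 22.6% of all tested genes were called higher, beside 9.72% with all libraries. Actg2, the enteric smooth muscle actin and the most abundant of them, was at 2658 ± 106 and 3315 ± 1552 FPKM. Tagln, a gene known to be abundant in smooth muscle, was listed below 1 FPKM in most libraries and was not tested. It overlaps Pcsk7 on the other strand, and whether reads were lost there in counting was not tested, so the listed value may not give its transcript level. The list summed to 5976 to 6752 FPKM at E17.5, to 3727 FPKM in P14 replicate 1 and to 10371 to 14509 FPKM in the other P14 libraries. The part of smooth muscle in the values of the pericyte genes was not tested.

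The partner subunits of SUR2 extend the picture for Abcc9. Kcnj8, which encodes the pore subunit Kir6.1 of the vascular channel, had fetal levels of 41.2, 35.6, 31.8 and 29.8 FPKM and P14 levels of 21.7, 61.3, 59.3 and 60.9 FPKM. With all libraries it did not pass (log2 fold change 0.44, limma adjusted p = 0.356), and without P14 replicate 1 it rose by 0.8 (SE 0.109, limma adjusted p = 0.000604). Kcnj8 against Abcc9 was 0.861 to 1.4 in the fetal libraries and 1.52 to 1.67 in the P14 libraries (exact permutation adjusted p = 0.0333, n = 4 against 4), a call lost without any one P14 library (0.0615 to 0.0667). Kcnj11 and Abcc8, the pore and sulfonylurea receptor of the channel known from pancreatic beta cells, were too low to test, at 0.102 to 1.9 and 0.253 to 1.58 FPKM.

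Ndufa4l2 and its paralog moved in opposite directions. Ndufa4, the widely expressed subunit of cytochrome c oxidase, rose from 192 ± 4.36 to 341 ± 39.5 FPKM (log2 fold change 0.82, SE 0.105, limma adjusted p = 0.00206), a call lost after quantile normalization (adjusted p = 0.0715). Ndufa4l2 against Ndufa4 fell from between 0.177 and 0.248 to between 0.0191 and 0.0494, 5.65-fold (exact permutation adjusted p = 0.0333, n = 4 against 4). The pair Cox4i2 and Cox4i1 did the same. Cox4i2, a subunit isoform found in pericytes and in lung and induced by low oxygen, fell from 22.1 ± 1.78 to 8.01 ± 2.54 FPKM, and Cox4i1, the common isoform, rose from 332 ± 20.8 to 629 ± 42.9 FPKM. Their ratio fell 5.43-fold (exact permutation adjusted p = 0.0333, n = 4 against 4). P14 replicate 1 had the lowest value of both ratios, at 0.0191 and 0.00746. The common paralogs are also made by epithelium, whose genes were highest in that library. The part of epithelium in these ratios was not tested. P14 replicates 2, 3 and 4 stood at 0.0452, 0.0364 and 0.0494 for the first ratio and at 0.0152, 0.0173 and 0.0115 for the second. Replicates 2 and 4 had the fewest epithelial transcripts of the P14 libraries.

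Among the relatives of Higd1b, Higd2a, a subunit linked to cytochrome c oxidase assembly, rose from 43.3 ± 5.58 to 89.3 ± 18.9 FPKM. Higd1a, a hypoxia-inducible gene, was at 18.3 ± 2.04 and 26.4 ± 8.26 FPKM and passed only without P14 replicate 1 (log2 fold change 0.7, limma adjusted p = 0.0011). Higd1c was listed at 0 in all 8 libraries. AA467197, a further relative of Ndufa4, was at 2.23 ± 0.882 and 3.69 ± 6.17 FPKM (limma adjusted p = 0.846), and fell by 1.01 without P14 replicate 1 (adjusted p = 0.0191).

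Of the relatives of Rgs5, Rgs4, which mural cells also express, was at 17 ± 1.7 and 25.5 ± 11.2 FPKM (log2 fold change 0.44, limma adjusted p = 0.359; 0.79 and adjusted p = 0.00207 without P14 replicate 1). Rgs5 gained on it, from 4.31 to 5.04 times its level in the fetal libraries to 6.97 to 8.98 times in the P14 libraries (exact permutation adjusted p = 0.0333, n = 4 against 4). Rgs1, a gene of lymphocytes, went from 5.57 ± 1.96 to 22.5 ± 10.8 FPKM. Its call did not hold when any library but P14 replicate 1 was left out (limma adjusted p 0.0512 to 0.0837). The Rgs1 call was also lost after rescaling to TPM (limma adjusted p = 0.0713) and in limma-voom on recovered reads (adjusted p = 0.0974). Rgs2, Rgs3 and Rgs16 did not pass (log2 fold changes -0.61, -0.26 and -0.43), and Rgs8, Rgs13 and Rgs18 were too low to test. Rgs16 did pass without P14 replicate 2 (adjusted p = 0.0354). The Mcam relatives Alcam and Bcam did not pass either (log2 fold changes -0.28 and 0.26), though Bcam rose by 0.75 without P14 replicate 1 (limma adjusted p = 0.00236). Cspg5, listed here for the name it shares with Cspg4 and not as a paralog, did not pass (-0.01).

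The wider list of vascular mural genes was mixed, as the 6 members were. Of its 29 genes 24 were tested. 2 of them rose, 7 were lower and the other 15 missed the threshold, with a median log2 fold change of -0.45. The 2 are close to the 9.72% of all tested genes called higher, beside 15% called lower. The fit that left out P14 replicate 1 gave 8 higher and 10 lower (22.6% and 26.9% of all tested genes) and a median of -0.14. Pdgfrb, the receptor through which pericytes are recruited, had fetal levels of 43.4, 43.2, 37.6 and 33.6 FPKM and P14 levels of 11.2, 17.1, 18.4 and 17.8 FPKM, with no overlap (log2 fold change -1.26, SE 0.172, limma adjusted p = 0.00268). The largest falls were those of Ednra, the endothelin A receptor (-1.81, SE 0.165), Angpt1 (-1.78, SE 0.119) and Tbx2, a T-box factor (-1.42, SE 0.227). The 2 that rose were Vtn, the gene of vitronectin, which brain pericytes secrete (0.964 ± 0.243 to 3.77 ± 1.44 FPKM), and Steap4, a metalloreductase (2.21 ± 0.262 to 4.43 ± 0.89 FPKM). Steap4 did not pass after rescaling to TPM (limma adjusted p = 0.065) or in limma-voom on recovered reads (adjusted p = 0.0512). Gucy1b1, a subunit of the nitric oxide receptor and the most abundant of the list, went from 71.3 ± 6.53 to 40.2 ± 15.9 FPKM, which did not pass (limma adjusted p = 0.0755; 0.0019 when P14 replicate 1 was left out).

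Signals that recruit and hold pericytes were followed in a list of their own. Its 19 tested genes include Pdgfrb, Angpt1 and Notch3 from the mural list and Tek, Tie1 and Eng from the endothelial list. Of the 19, none was called higher and 14 were called lower, where 15% of all tested genes were called lower. Without P14 replicate 1, 17 were called lower, where 26.9% of all tested genes were. Without E17.5 replicate 1, 2 or 3 it was 8 each time, where 1477, 1288 and 1118 of the 14044 tested genes were called lower. Angpt1, the ligand of TIE2, went from 6.88 ± 0.623 to 1.3 ± 0.235 FPKM, Acvrl1, the endothelial receptor ALK1, fell by 1.59 (SE 0.146), and Notch3, the mural Notch receptor, fell by 1.41 (SE 0.298) on the log2 scale. Their calls held in all 8 fits that left out a library. Pdgfb, the ligand itself, went from 20.7 ± 1.89 to 15.9 ± 1.11 FPKM (log2 fold change -0.36, SE 0.101, limma adjusted p = 0.0341).

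Of 19 genes of the hypoxia response, to which Ndufa4l2 is tied, 0 were called higher, 8 were called lower and 11 did not pass, where 15% of all tested genes were called lower. The counts were 1 and 14 without P14 replicate 1, where 22.6% of all tested genes were called higher and 26.9% lower. After rescaling to TPM they were 0 and 13, where 2678 of the 14044 tested genes were called lower. Other scalings gave fewer. Lower were 7 with libraries scaled by their median ratio to the mean of each gene (median-of-ratios), 12 after quantile normalization and 11 in limma-voom on recovered reads. Over all tested genes these 3 settings called 1874, 2527 and 2114 lower. P4ha1, a collagen prolyl hydroxylase, fell by 1.83 (SE 0.162), Slc2a1, the glucose transporter GLUT1, by 1.78 (SE 0.342) and Vegfa, the endothelial growth factor, from 40.2 ± 1.36 to 14.6 ± 2.32 FPKM. The list summed to 732 to 837 FPKM at E17.5, to 696 FPKM in P14 replicate 1 and to 479 to 516 FPKM in the other P14 libraries. It was thus highest of the P14 libraries in replicate 1, where Ndufa4l2 was lowest (5.57 FPKM). Pgk1, a glycolytic enzyme and the most abundant of the list, went from 163 ± 15.9 to 123 ± 12.9 FPKM. Its call also needed every library but P14 replicate 1 (limma adjusted p 0.0566 to 0.111), and was lost under median-of-ratios scaling (limma adjusted p = 0.0515).

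Other cells of the gut wall that could carry these transcripts were followed by marker lists. With all libraries, 2 of 6 tested enteric glia genes rose and 0 fell, 0 of 7 enteric neuron genes were called either way, 1 of 3 genes of the interstitial cells of Cajal rose, 3 of 8 fibroblast genes rose and 1 fell, 0 of 7 macrophage genes rose and 6 fell, and 9 of 12 epithelial genes rose. Over all tested genes 9.72% were called higher and 15% lower, and 22.6% and 26.9% without P14 replicate 1. The calls of the glia and Cajal cell genes were lost when any library but P14 replicate 1 was left out. The epithelial increases numbered 0 or 1 without any one fetal library and 0 without P14 replicate 3. The neuron list gave 4 increases and the Cajal cell list 2 without P14 replicate 1, and the glia list 5. The glia list summed to 58.7 to 64.1 FPKM at E17.5 and 64.4 to 105 FPKM at P14, and none of its 9 genes was at 0 in all libraries. The fibroblast list summed to 1606 to 1769 FPKM and to 616 to 1748 FPKM. The part of these cells in the values of the pericyte genes was not tested.

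The genes whose pattern over the 8 libraries was most like the mean standardised level of the 6 members were Copz2, Tagln3, Hoxa6, Hoxa5, Cdh24, Tlx2, Gprasp2, Fam189b, Spef1 and Pcbp3, with Pearson's r of 0.996 to 0.987 among 12688 protein-coding genes. The points share libraries and depth, and the members in that mean move in opposite directions between the ages, so the mean is low in P14 replicate 1 and much the same elsewhere. Copz2, for example, was at 43.1 ± 3.47 FPKM at E17.5 and 40.3 ± 16.9 FPKM at P14, with 16.8 FPKM in P14 replicate 1. Without P14 replicate 1 its r was 0.879, and none of the 10 was among the first 10 over the remaining 7 libraries.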

How the data were processed

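The members, gene lists and tests were chosen with earlier results of these data known. Bulk RNA-seq of 4 E17.5 and 4 P14 libraries was analysed from 1 deposited table of FPKM values, made by the authors, on GRCm39; per the submitters' processing notes the tools were CASAVA, fastp, HISAT2, featureCounts and DESeq2 1.20.0, with no roles given. The product of FPKM and gene length fell on whole multiples of a library's step for 100% of values (tolerance 1e-06), and so gave back the reads. Relative to assigned reads, the library size in the authors' scaling was 0.78 for P14 replicate 1 and 1.02 to 1.06 for the others. Genes with 1 FPKM or more in at least 4 libraries (14044) were compared in limma 3.58.1 (R 4.3.3, statmod 1.5.0) on log2(FPKM + 1), which understates changes of low genes, with an intensity trend, robust moderation and p-values adjusted by Benjamini-Hochberg across the tested genes (threshold 0.05). The test was checked on simulated data with equal spread in every gene and library, so not on a group with a library that stands apart like P14 replicate 1. Levels against endothelium and ratios were tested by exact permutation over 70 assignments of libraries to ages. Beside the members 14 lists were used; all 167 symbols, members included, matched by name. Named were all members, partners and paralogs, up to 3 called genes of largest change and the most abundant gene of the other lists described, and the 10 most alike genes; Pdgfrb, Pdgfb, Vtn, Steap4 and Tagln, and the ratios, were chosen after values were seen. Alternatives were other pseudocounts, filters, scalings, moderation, recovered reads in limma-voom, a replicate block and leaving out each library.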

Additional observations from a re-analysis of the deposited data

Results flagged for a closer look

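Cspg4 in P14 replicate 1, at 5.02 FPKM, lay far from the other 3 P14 libraries, with a gap of 0.861 of the range of the group (critical value 0.829). It was the only such value among 52 groups of 4 that were checked, and chance flags about 1 in 20. P14 replicate 1 was also the lowest P14 library for Rgs5, Abcc9, Mcam and Ndufa4l2.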

How the results depend on the processing

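Rescaling to TPM moved the median log2 fold change of all tested genes by -0.18, to be read beside every TPM value, and took the share of increases among all calls from 39.3% to 25.1%. The rise of Rgs5 kept its direction in all alternatives run but missed the threshold with no filter on low values (1.23, limma adjusted p = 0.0528), after TPM rescaling (1.04, 0.0945), after quantile normalization (1.05, 0.0983) and in limma-voom on recovered reads (1.15, 0.0641), so that 0 members were called higher in those 4. Leaving out each library in turn gave 1.08 to 1.56 for Rgs5, -0.84 to -0.34 for Cspg4, -0.23 to 0.25 for Abcc9, -0.51 to -0.06 for Mcam and -1.75 to -1.25 for Ndufa4l2. Abcc9 turned to 0.25 and Cspg4 passed at -0.34 without P14 replicate 1. The members called higher then numbered 0 to 2 and those called lower 1 to 2. Ndufa4l2 passed in all 17 alternatives.

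Relative to the endothelial list, leaving out 1 library gave 1.92 to 2.08 for Rgs5, 0.61 to 0.77 for Abcc9, 0.34 to 0.45 for Mcam (0.335 to 0.454), -0.91 to -0.74 for Ndufa4l2, -0.06 to 0.18 for Cspg4 and 0.74 to 1.12 for Higd1b. Cspg4 turned to -0.0586 without E17.5 replicate 4 and to -0.0109 without P14 replicate 3, and Higd1b passed at 1.12 without P14 replicate 4. With Pecam1, Cdh5 and Tie1 as reference Higd1b passed (1.19, exact permutation adjusted p = 0.0343). With the smooth muscle reference the sign turned for Cspg4 (-1.38), Abcc9 (-0.777), Mcam (-1.06) and Higd1b (-0.551). As a replicate block, differences between same-numbered libraries were 1.98 for Rgs5, 0.663 for Abcc9, 0.377 for Mcam and -0.833 for Ndufa4l2, each with an exact adjusted p of 0.15; with 4 pairs the smallest possible raw p is 0.125, so that setting says nothing of stability. Same-numbered libraries did not deviate together (correlations -0.06 to 0.01), so no pairing by number was seen. Whether they share a batch was not tested. With the replicate block in limma, Rgs5 and Ndufa4l2 still passed (adjusted p 0.043 and 0.0487), and 695 genes were called higher and 1049 lower, against 1365 and 2108 without it. No filter on low values gave 1007 and 1571, limma-voom 894 and 2114, and leaving out each library 617 to 3176 and 1118 to 3782. Of the 10 genes most like the members, 0 remained without P14 replicate 1 and 1 with Spearman's rho. For settings without a stated reason the cause was not tested. Depth limits Higd1b alone among the members.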
